A study of Homo sapiens with 6 samples.

Results

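The keratins and the genes of the cell junctions described here are 49 genes out of 24462 gene symbols counted in each RNA library. They were listed by name: 9 type I keratins, 5 type II keratins, 5 adherens junction genes, 13 tight junction genes, 9 desmosome genes, 6 regulators of epithelial gene expression and 2 gap junction genes. All 49 are in the count files. The study follows early colorectal cancer development in cultured colon cells that lose APC, the tumor suppressor that promotes the breakdown of β-catenin. Its bulk RNA data compare 3 libraries of 1CT with 3 libraries of 1CT-A. 1CT is an HCEC line, a human colonic epithelial progenitor line immortalized with hTERT, and its genotype label is WT. 1CT-A is the APC depleted version of it (APC KD in the labels), and both lines came to the study from another laboratory. Neither line was treated, and both grew in the same low-serum medium with 20 ng/mL EGF, hydrocortisone, insulin, 5 nM sodium selenite, transferrin and 2% FBS. Each genotype is represented by a single cell line, so the loss of APC cannot be told apart from other differences between these 2 lines, and the labels do not say whether the libraries of a line come from separate cultures. The p-values therefore measure the spread between libraries, which may be technical.

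Epithelial cells hold together through junctions. Adherens junctions join E-cadherin through catenins to actin, desmosomes join desmogleins and desmocollins through plakoglobin, plakophilins and desmoplakin to the keratin filaments, and tight junctions of claudins, occludin and their scaffold proteins seal the sheet. Keratin filaments form from a type I and a type II keratin together, with KRT8 and KRT18 as the usual partners in a simple epithelium such as the colon. Gap junctions are channels of connexins between neighboring cells. GRHL, OVOL and ESRP proteins keep epithelial genes and epithelial splice forms on, whereas ZEB, SNAI and TWIST factors repress epithelial genes, E-cadherin among them.

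The libraries hold 7788679 to 8452258 counts in 1CT and 11158108 to 12602988 in 1CT-A, a mean depth ratio of 1.43. APC, the depleted gene, is at 46.6 ± 2.75 CPM (counts scaled to a library total of 1000000, mean ± SD, n = 3) in 1CT and 31.9 ± 2.21 CPM in 1CT-A (n = 3), and its fall by 0.58 on the log2 scale has an adjusted p of 0.000176 in edgeR. The data go against the label of colon epithelium in terms of markers. Of 21 marker genes of that tissue, all 21 have at most 3 counts in every library, and 13 of them have 0 counts in all 6, among them EPCAM, VIL1, CDX1, GPA33, FABP1, MUC2 and CHGA. Their summed level lies between 0.237 and 0.724 CPM in 1CT, against 0 to 0.159 CPM in 1CT-A. In contrast, 14 fibroblast genes such as COL1A1 and VIM sum to between 6674 and 8642 CPM in 1CT, against 6219 to 6443 CPM in 1CT-A. The lists for squamous and basal epithelium (0.355 to 0.385 CPM in 1CT, 0.0896 to 0.614 CPM in 1CT-A), endothelium (3.60 to 6.76 and 1.08 to 2.63 CPM) and immune cells (10.99 to 14.32 and 8.65 to 10.2 CPM) are low. The cells are therefore called by the names of the lines, and their epithelial genes are measured against this background.

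**Figure D1:**
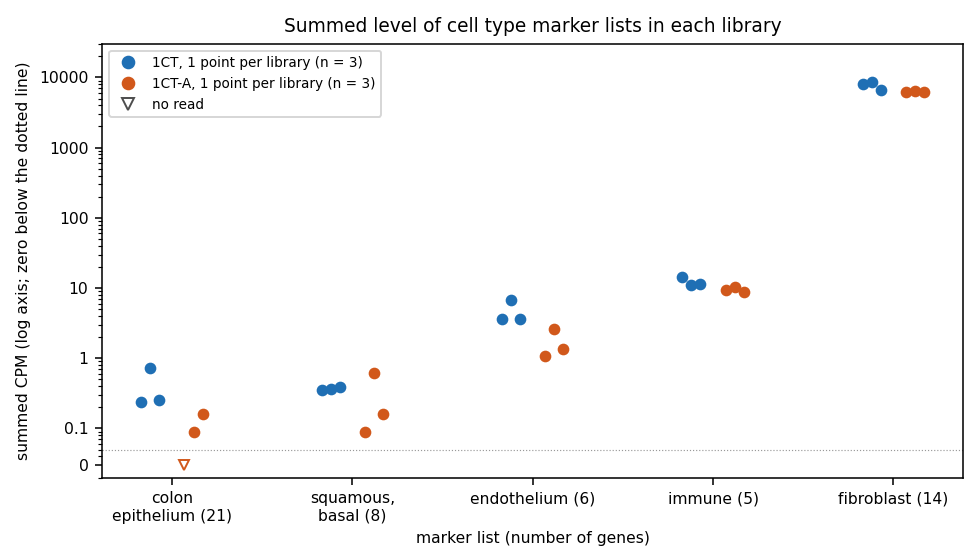
Summed level of each cell type marker list in each library, in CPM of the library total on a log axis, with a point per library (blue 1CT, orange 1CT-A, n = 3 each) and the list size in parentheses. The fibroblast list lies between 6219 and 8642 CPM, and the 21 colon epithelium genes together stay at or below 0.724 CPM in every library.

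Of the 49 genes, 22 pass the filter on low counts and are tested. In 1CT-A 14 of them are lower, 3 are higher (KRT10, DSC3 and GJA1) and 5 do not pass the test, at an adjusted p under 0.05 in edgeR. Over all 12514 genes tested, 51.0% are called, 25.0% higher and 26.0% lower, so a call as such is common in this comparison. Of the 14 genes that are lower, 7 pass the filter only because they are high in 1CT (KRT7, KRT19, CLDN1, DSG2, DSP, JUP and PKP2), and among all 777 genes that pass this way 80.8% are called lower, so nothing is read from their calls as a group. DSC3 passes only through 1CT-A, and 53.0% of all 317 such genes are called higher. Of the 14 members with at least 10 counts in every library, 2 are higher and 7 are lower, beside 50.1% called among all 11252 such genes, 26.2% higher and 23.9% lower. In bulk RNA, fewer cells that carry a transcript and less of it per cell cannot be told apart, and this holds for every level given here.

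**Figure D2:**
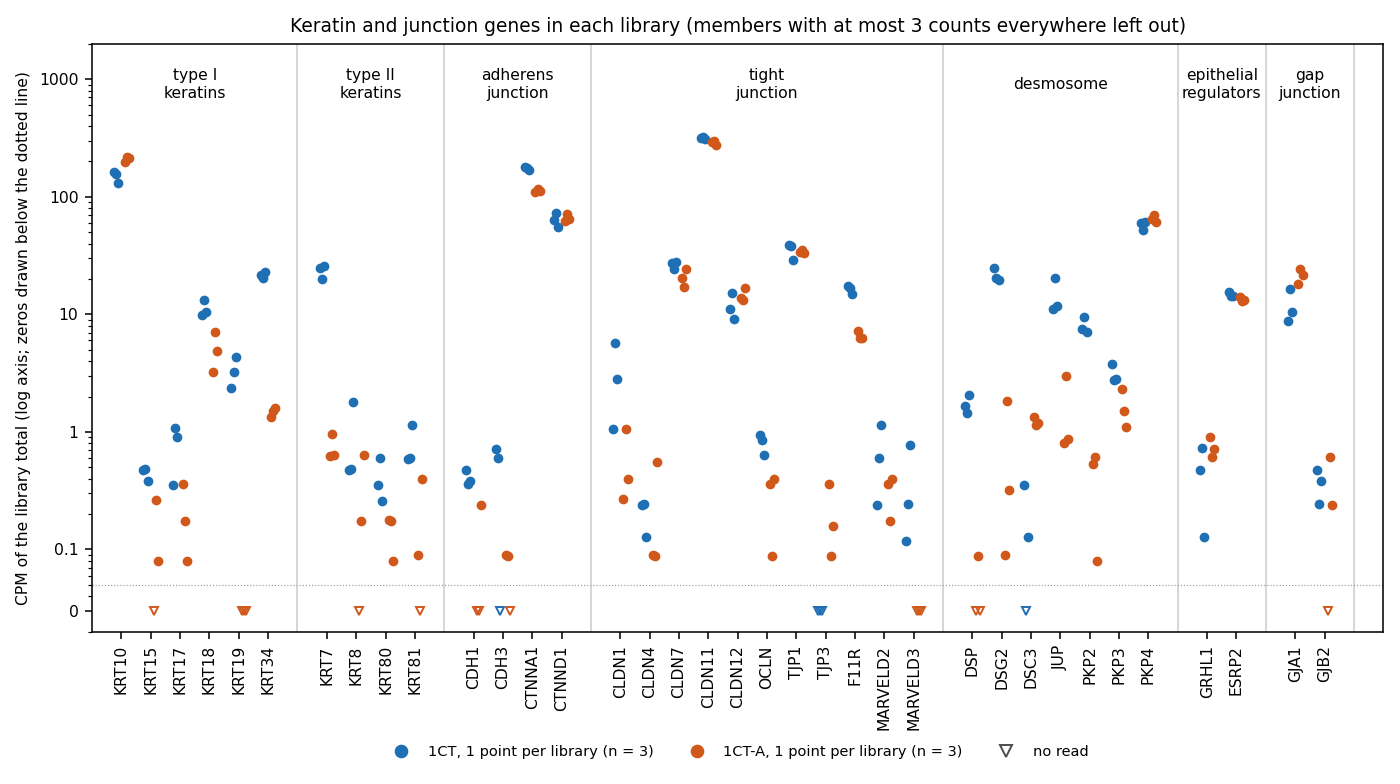
Level of 36 members in each library, in CPM of the library total on a log axis, grouped by role, with a point per library (blue 1CT, orange 1CT-A, n = 3 each) and open triangles for libraries without a read. KRT7, KRT34, KRT19, DSG2, PKP2, JUP, DSP and F11R are separated between the lines, while TJP1, CTNND1, CLDN12 and PKP4 overlap.

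Among the keratins, KRT7, KRT34, KRT18 and KRT19 are lower in 1CT-A and KRT10 is higher. KRT7 (chr12:52232520-52252186, plus strand, in the annotation GENCODE 44 on GRCh38), a type II keratin of glandular and ductal epithelia, has 24.6, 20.2 and 25.8 CPM in the 3 1CT libraries and 0.627, 0.965 and 0.635 CPM in the 3 1CT-A libraries. All 1CT libraries are far above all 1CT-A libraries, which hold 7 to 11 counts each. The log2 fold change is -5.01 (SE 0.21, adjusted p 1.74e-09 in edgeR), that is 32.1-fold lower. KRT7 shares 32 bases near its 3′ end with the pseudogene KRT87P on the other strand, whose counts are not among those used here.

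KRT34 (chr17:41377669-41382306, minus strand), a type I keratin best known from hair, has 21.4, 20.4 and 22.7 CPM in 1CT and 1.34, 1.49 and 1.59 CPM in 1CT-A. The libraries of each line lie close together, and the lines do not overlap. KRT34 has a log2 fold change of -3.89 (SE 0.17, adjusted p 1.88e-09 in edgeR), a 14.8-fold lower level.

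KRT18 (chr12:52948871-52952906, plus strand), the type I keratin of simple epithelia, has 9.94, 13.2 and 10.5 CPM in 1CT and 3.23, 7.02 and 4.92 CPM in 1CT-A. The 1CT-A libraries spread widely, yet the highest of them stays below the lowest 1CT library. It falls by 1.19 on the log2 scale (SE 0.23, adjusted p 0.000882 in edgeR), 2.27-fold lower. KRT8, the type II partner of KRT18, does not pass the filter, with 4, 4 and 14 counts in 1CT and 0, 2 and 8 counts in 1CT-A, and its libraries overlap. The genes of KRT18 and KRT8 lie next to each other on opposite strands and share 525 exonic bases, none of them near the 3′ end of KRT18.

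KRT19 (chr17:41523617-41528308, minus strand), a type I keratin of simple and glandular epithelia, has 20, 27 and 34 counts in 1CT and 0 counts in each 1CT-A library. A count of 0 allows up to 3 counts, which is 0.238 to 0.269 CPM in these libraries. Against this limit per library, KRT19 is at least 13.0-fold lower in 1CT-A (adjusted p 7.84e-06 in edgeR).

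KRT10 (chr17:40818117-40822614, minus strand), a type I keratin of the upper layers of the epidermis, moves the other way. It has 163, 155 and 131 CPM in 1CT and 199, 218 and 215 CPM in 1CT-A, without overlap. KRT10 rises by 0.45 on the log2 scale (SE 0.08, adjusted p 0.000535 in edgeR), 1.37-fold higher. KRT10 shares 16 bases near its 3′ end with an antisense RNA, KRT10-AS1, whose counts are not among those used here.

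KRT10 holds most of the keratin counts, and the sums depend on it. All 14 keratins together are at 213 ± 12.7 CPM in 1CT and 219 ± 12.6 CPM in 1CT-A (SD, n = 3). Without KRT10, a choice made after its values were seen, the other 13 are at 63.0 ± 4.30 CPM in 1CT and 8.17 ± 2.23 CPM in 1CT-A. The 5 type II keratins sum to 26.0, 21.9 and 29.0 CPM in the 1CT libraries, against 0.896, 1.32 and 1.75 CPM in 1CT-A, so every 1CT-A library is far below every 1CT library. The 9 type I keratins sum to 197.8, 193.8 and 169.9 CPM in 1CT, against 204, 227 and 221 CPM in 1CT-A. Without KRT10, the type I sum is 37.3 ± 2.41 CPM in 1CT and 6.85 ± 2.02 CPM in 1CT-A. These sums are descriptions without a test.

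The remaining keratins are near or at the floor. KRT5, KRT14 and KRT16, keratins of basal and stressed squamous epithelium, have 0 counts in all 6 libraries, and KRT20, a keratin of differentiated intestinal epithelium, has 1 count in a single 1CT library. KRT15, KRT17, KRT80 and KRT81 have between 0 and 9 counts per library, of which KRT15, KRT80 and KRT81 do not overlap between the lines and are lower in 1CT-A. The 41 further keratin symbols in the files, not among the 49 genes, do not contain any gene that passes the filter.

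Several proteins of the desmosome have much less RNA in 1CT-A. Of its 9 genes 7 are tested, of which 5 are lower (DSG2, PKP2, JUP, DSP and PKP3), DSC3 is higher and PKP4 does not pass the test. Over all 12514 genes tested, 25.0% are called higher and 26.0% lower. The median log2 fold change of the 7 is -3.26, beside -0.01 over all genes tested. Of these 7, 5 pass the filter only through the line in which they are high. Neither the counts nor the median is therefore a test of the group.

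The promoters of 4 of them and of KRT34 are shown. DSP, DSG2, JUP and KRT34 are lower, while DSC3, in the same cadherin gene cluster on chromosome 18 as DSG2, is higher. They were chosen after these values were seen, so the choice tests nothing. ZEB and SNAI repressors are known to bind 6 letters that are marked in these promoters. Each has 300 bases, 250 before and 50 after a transcript start, from RefSeq on GRCh38.p14, 5′ to 3′ on the strand of the gene, with CACCTG and its reverse complement CAGGTG in capitals. DSP is at chr6:7541421-7541720 (plus strand), DSG2 at chr18:31497927-31498226 (plus strand), JUP at chr17:41786662-41786961 and, for another start, chr17:41785927-41786226 (minus strand), KRT34 at chr17:41382257-41382556 (minus strand) and DSC3 at chr18:31042693-31042992 (minus strand).
DSP: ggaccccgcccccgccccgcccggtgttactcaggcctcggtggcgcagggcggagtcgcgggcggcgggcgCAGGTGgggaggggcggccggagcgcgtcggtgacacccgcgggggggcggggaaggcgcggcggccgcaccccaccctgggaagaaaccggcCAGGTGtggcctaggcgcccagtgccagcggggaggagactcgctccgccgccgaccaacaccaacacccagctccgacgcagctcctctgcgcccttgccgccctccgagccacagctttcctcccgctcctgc
DSG2: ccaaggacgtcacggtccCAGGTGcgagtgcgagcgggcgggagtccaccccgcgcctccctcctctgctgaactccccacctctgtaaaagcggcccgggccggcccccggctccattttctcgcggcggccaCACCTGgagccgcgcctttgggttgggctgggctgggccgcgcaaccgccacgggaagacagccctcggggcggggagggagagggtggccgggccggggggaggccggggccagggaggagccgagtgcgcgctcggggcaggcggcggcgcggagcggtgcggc
JUP, start 1: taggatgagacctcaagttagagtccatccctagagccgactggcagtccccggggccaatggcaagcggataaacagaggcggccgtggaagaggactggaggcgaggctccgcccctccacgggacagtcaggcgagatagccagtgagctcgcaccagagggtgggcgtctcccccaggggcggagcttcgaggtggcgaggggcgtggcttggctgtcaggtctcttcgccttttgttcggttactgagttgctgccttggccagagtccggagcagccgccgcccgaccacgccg
JUP, start 2: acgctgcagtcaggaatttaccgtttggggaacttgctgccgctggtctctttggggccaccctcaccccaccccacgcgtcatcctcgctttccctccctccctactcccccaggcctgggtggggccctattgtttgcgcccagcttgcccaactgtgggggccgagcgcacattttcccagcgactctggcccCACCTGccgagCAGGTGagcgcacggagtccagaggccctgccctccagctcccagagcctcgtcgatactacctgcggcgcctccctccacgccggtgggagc
KRT34: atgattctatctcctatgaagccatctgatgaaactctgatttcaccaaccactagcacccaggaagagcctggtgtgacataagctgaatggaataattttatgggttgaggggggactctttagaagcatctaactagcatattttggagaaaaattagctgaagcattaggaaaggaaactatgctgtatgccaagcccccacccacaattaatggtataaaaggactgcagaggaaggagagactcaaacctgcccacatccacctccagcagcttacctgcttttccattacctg
DSC3: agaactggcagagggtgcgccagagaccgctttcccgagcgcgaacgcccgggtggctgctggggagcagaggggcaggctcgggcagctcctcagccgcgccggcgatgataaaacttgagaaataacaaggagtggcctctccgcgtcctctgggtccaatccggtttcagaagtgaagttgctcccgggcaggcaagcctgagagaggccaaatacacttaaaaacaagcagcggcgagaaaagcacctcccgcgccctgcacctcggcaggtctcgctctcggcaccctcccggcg
The letters occur in 2 places in the DSP and DSG2 promoters and at JUP start 2, and in none at JUP start 1, in KRT34 and in DSC3. Among all 35116 RefSeq promoters of this length, 20.6% hold them. Of the 49 genes 27 have an entry, with 40 promoters in all, and 13 of the 40 (32.5%) hold the letters. Among the members with an entry, the letters are in a promoter of 4 of the 8 that are lower (CLDN7, DSG2, DSP and JUP, but not CLDN1, CLDN11, CTNNA1 or KRT34), of 0 of the 3 that are higher, of 1 of the 3 tested without a call and of 7 of the 13 not tested. These are counts of genes, some with several promoters, and do not compare with the 20.6%. Counted by promoter, the letters are in 4 of 14, 0 of 3, 1 of 7 and 8 of 16, in the same order. A match describes the sequence only, binding was not measured, and the part of ZEB and SNAI factors in these changes was not tested.

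DSG2 (chr18:31498177-31549008), the desmoglein of simple epithelia, has 24.6, 20.3 and 19.8 CPM in 1CT and 0.0896, 1.84 and 0.317 CPM in 1CT-A. Counts in the 1CT-A libraries are 1, 21 and 4, so 1CT-A replicate 2 stands above the other two, though far below every 1CT library. The log2 fold change is -4.88 (SE 0.39, adjusted p 4.50e-07 in edgeR), and without 1CT-A replicate 2 it is -6.62.

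PKP2 (chr12:32790745-32896798), a plakophilin that ties desmosomal cadherins to desmoplakin, has 7.45, 9.54 and 7.06 CPM in 1CT and 0.538, 0.614 and 0.0793 CPM in 1CT-A. The 1CT-A libraries hold 1 to 7 counts, and the lines do not overlap. With a log2 fold change of -4.32 (SE 0.37, adjusted p 9.14e-07 in edgeR), PKP2 is 20.0-fold lower.

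JUP (chr17:41754604-41786931), which codes for plakoglobin, the catenin shared by desmosomes and adherens junctions, has 11.1, 20.5 and 11.8 CPM in 1CT and 0.807, 2.98 and 0.873 CPM in 1CT-A. Replicate 2 is the highest library in each line. For JUP the log2 fold change is -3.26 (SE 0.38, adjusted p 1.16e-05 in edgeR), and it is -4.11 without 1CT-A replicate 2.

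DSP (chr6:7541338-7586714), desmoplakin, the link to the keratin filaments, has 14, 12 and 16 counts in 1CT and 0, 1 and 0 counts in 1CT-A, which makes it at least 6.70-fold lower against 3 counts per library (adjusted p 2.63e-05 in edgeR). DSC3 (chr18:30989365-31042815), a desmocollin known from stratified epithelia, has 3, 0 and 1 counts in 1CT and 15, 13 and 15 counts in 1CT-A, which makes it at least 3.33-fold higher (adjusted p 0.00218 in edgeR). DSC3 just passes the filter, and it is not tested without 1CT-A replicate 1 or 3. Both genes are measured from few reads, and their fitted values depend on single libraries: DSP moves from -5.43 to -7.08 without 1CT-A replicate 2 and DSC3 from 2.78 to 4.02 without 1CT replicate 1, on the log2 scale.

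PKP3 (chr11:392614-404908), a plakophilin of most epithelia, has 3.79, 2.78 and 2.82 CPM in 1CT and 2.33, 1.49 and 1.11 CPM in 1CT-A. The lines do not overlap, but the gap is narrow beside the spread. The log2 fold change of -0.98 (SE 0.32, adjusted p 0.0211 in edgeR) no longer passes without 1CT replicate 1, 1CT-A replicate 2 or 1CT-A replicate 3 (adjusted p 0.089, 0.068 and 0.099).

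PKP4, a relative of the p120 catenins found at adherens junctions as well as desmosomes, has 59.4, 52.5 and 61.4 CPM in 1CT and 65.2, 70.1 and 60.8 CPM in 1CT-A, with overlap (log2 fold change 0.14, SE 0.09, adjusted p 0.221 in edgeR). DSC2 and PKP1 have at most 2 counts in any library. The 9 desmosome genes sum to 107 ± 1.49 CPM in 1CT and 71.0 ± 6.99 CPM in 1CT-A (SD, n = 3), and without PKP4, left out after its values were seen, to 49.2 ± 5.27 and 5.61 ± 2.34 CPM. 1CT-A replicate 2 has the highest of the 3 1CT-A values for 14 of the 22 tested members, and the part of that library in the results was not tested beyond leaving it out.

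The sums are given beside another set of low transcripts. The 398 olfactory receptor symbols, genes foreign to the colon, sum to between 12.8 and 16.4 CPM in 1CT, against 5.48 to 5.83 CPM in 1CT-A, without overlap. The pseudogene OR7E12P alone has between 5.56 and 9.63 CPM in 1CT, against 2.62 to 3.76 CPM in 1CT-A, and the other symbols sum to 6.04 to 8.40 CPM in 1CT, against 2.06 to 2.86 CPM in 1CT-A. Their part in the falls of low members was not tested.

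**Figure D3:**
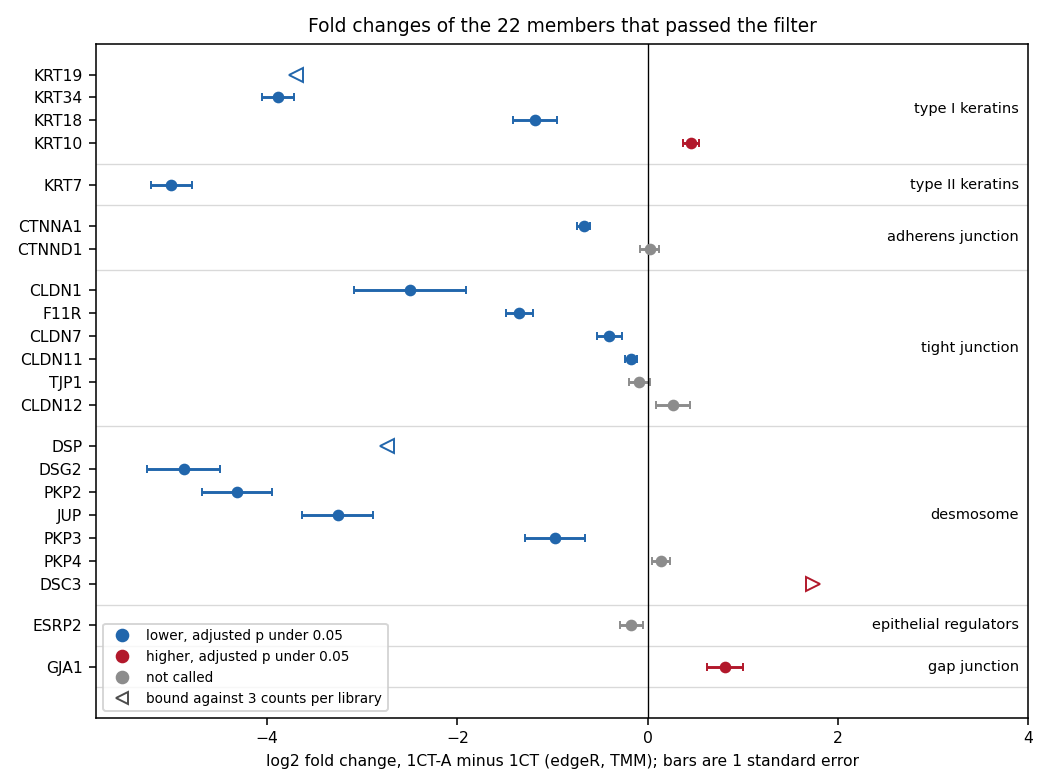
log2 fold change (1CT-A minus 1CT) of the 22 tested members by role, with bars of 1 standard error, colored by the call at an adjusted p under 0.05 in edgeR, and open triangles for bounds against 3 counts per library. KRT7, DSG2, PKP2, KRT34 and JUP lie between -5.01 and -3.26, and KRT10 and GJA1 lie at 0.45 and 0.81.

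Of the 5 adherens junction genes the catenins CTNNA1 and CTNND1 are tested, and CTNNA1 is lower. CTNNA1 (chr5:138610967-138935034), α-catenin, the link from the cadherin complex to actin, has 178, 177 and 171 CPM in 1CT and 110.5, 116 and 112 CPM in 1CT-A. The libraries of each line are tight and the lines are well apart, with a log2 fold change of -0.67 (SE 0.07, adjusted p 3.41e-06 in edgeR), 1.59-fold lower. CTNND1, p120 catenin, which keeps cadherins at the membrane, has 63.5, 72.6 and 55.0 CPM in 1CT and 62.6, 71.7 and 64.7 CPM in 1CT-A. The ranges overlap, and the log2 fold change of 0.02 (SE 0.10, adjusted p 0.882 in edgeR) does not pass the test.

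CDH1, E-cadherin, has 4, 3 and 3 counts in 1CT and 0, 0 and 3 in 1CT-A, and CDH3, P-cadherin, has 6, 5 and 0 counts in 1CT and 1, 1 and 0 in 1CT-A. EPCAM has 0 counts in all 6 libraries. These 3 genes do not pass the filter. In CPM the lines do not overlap for CDH1, which rests on at most 4 counts per library, and they overlap for CDH3.

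Of the 13 tight junction genes 6 are tested, of which F11R, CLDN1, CLDN7 and CLDN11 are lower and CLDN12 and TJP1 do not pass the test. Over all 12514 genes tested, 25.0% are called higher and 26.0% lower. CLDN1 passes the filter only through 1CT, and nothing is read from this count. F11R (chr1:160995211-161021343), which codes for the junctional adhesion molecule JAM-A, has 17.5, 16.7 and 14.8 CPM in 1CT and 7.26, 6.23 and 6.27 CPM in 1CT-A. The groups are far apart, and the log2 fold change is -1.35 (SE 0.14, adjusted p 5.43e-06 in edgeR), 2.55-fold lower.

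CLDN1 (chr3:190305707-190322446), a sealing claudin of many epithelia, has 9, 47 and 22 counts in 1CT and 3, 12 and 5 counts in 1CT-A. Replicate 2 is the highest library of each line, and the lowest 1CT library (1.06 CPM) and the highest 1CT-A library (1.05 CPM) nearly meet. The log2 fold change of -2.50 (SE 0.59, adjusted p 0.00329 in edgeR) becomes -1.77 without 1CT replicate 2 and -3.22 without 1CT-A replicate 2.

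CLDN7 (chr17:7259903-7263983), a claudin of intestinal epithelium, has 27.6, 24.3 and 28.0 CPM in 1CT and 20.3, 17.2 and 24.4 CPM in 1CT-A, and the lines overlap. Its log2 fold change of -0.40 (SE 0.13, adjusted p 0.0225 in edgeR) no longer passes without 1CT replicate 1, 1CT-A replicate 1 or 1CT-A replicate 2 (adjusted p 0.065, 0.062 and 0.11). CLDN7 shares 38 bases at its 3′ end with ELP5 on the other strand, which has 155 to 200 counts in 1CT and 354 to 474 in 1CT-A, and since the use of strand in the counting is not given, reads of the 2 genes may not be separated.

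CLDN11 (chr3:170418868-170454733), a claudin known from myelin and the testis, has 317, 322 and 308 CPM in 1CT and 290.2, 296 and 275 CPM in 1CT-A. The lines do not overlap, but the difference is small, with a log2 fold change of -0.18 (SE 0.06, adjusted p 0.0351 in edgeR). The call is lost in several alternatives, among them library size only, no filter, a replicate block, and leaving out any 1 library other than 1CT replicate 3.

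TJP1, the scaffold protein ZO-1, has a log2 fold change of -0.09 (SE 0.11, adjusted p 0.518 in edgeR), and CLDN12 one of 0.26 (SE 0.18, adjusted p 0.231). CLDN12 passes without 1CT replicate 2 (log2 fold change 0.49, adjusted p 0.033), and it shares exons on the same strand with other genes, so its counts are uncertain. CLDN3 has 0 counts in all libraries, and CGN has at most 3. OCLN, TJP3, CLDN4, MARVELD2 and MARVELD3 have between 0 and 9 counts. OCLN and MARVELD3 do not overlap and are lower in 1CT-A, and TJP3, with 0 counts in each 1CT library and 4, 1 and 2 in 1CT-A, does not overlap and is higher.

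The regulators of the epithelial state have at most 10 counts in any library, apart from ESRP2. GRHL2, OVOL1 and OVOL2 have 0 counts in all 6 libraries, and ESRP1 has 1 count in a single 1CT library. GRHL1 has 4, 6 and 1 counts in 1CT and 10, 7 and 9 in 1CT-A, which overlap in CPM. ESRP2, an epithelial splicing regulator, has 15.6, 14.4 and 14.4 CPM in 1CT and 14.1, 13.1 and 13.3 CPM in 1CT-A (log2 fold change -0.17, SE 0.12, adjusted p 0.255 in edgeR). The 3′ part of ESRP2 shares 227 exonic bases with NFATC3 on the other strand, which has 650 to 778 counts in 1CT and 1035 to 1213 in 1CT-A, so the level of ESRP2 is uncertain.

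Of the gap junction genes, GJA1 (chr6:121435595-121449727), connexin 43, the connexin of many tissues and of fibroblasts, is higher in 1CT-A. It has 8.76, 16.3 and 10.5 CPM in 1CT and 18.0, 24.5 and 21.7 CPM in 1CT-A, so the highest 1CT library is just below the lowest 1CT-A library. It rises by 0.81 on the log2 scale (SE 0.19, adjusted p 0.00324 in edgeR), 1.76-fold higher. GJB2, connexin 26, has 2 to 4 counts in 1CT and 0, 7 and 3 in 1CT-A.

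Of all 49 genes 27 are not tested, and 13 of them have at most 3 counts in every library, 8 of these with 0 in all 6. Among the other 14, 6 do not overlap and are lower in 1CT-A and 1 is higher. Among all 2669 symbols at such levels, 26.0% do not overlap and are lower and 5.92% higher. When edgeR is run without a filter, 18 members are lower and 3 higher, beside 18.6% lower and 19.2% higher among 19169 genes. The 8 members with 0 counts in all 6 libraries do not enter this fit. It gives much smaller adjusted p-values at a similar SE. For KRT7 the adjusted p in edgeR is 1.45e-103 (SE 0.226) without the filter and 1.74e-09 (SE 0.214) with it. The adjusted p-values of the 2 fits are therefore not compared. The members that gain a call this way are KRT8 (adjusted p 0.0418), KRT17 (adjusted p 0.0393), KRT81 (adjusted p 0.0237), CDH3 (adjusted p 0.046) and MARVELD3 (adjusted p 0.00901), all lower and with at most 14 counts in any library, and CLDN11 loses its call. KRT8, KRT17 and CDH3 overlap between the lines.

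The wider set of junction, filament and epithelial genes, 190 genes in 9 lists, gives 71 genes that pass the filter, of which 19 are higher, 27 are lower and 25 do not pass the test. This count and those of the single lists below stand beside 25.0% higher and 26.0% lower over all 12514 genes tested. A call as such is common, so nothing is read from these counts. Among 20 tested of 27 other tight junction genes 4 are higher and 7 lower, among 17 of 22 other adherens junction genes 6 are higher and 8 lower, and among 9 of 16 other desmosome and hemidesmosome genes 2 are higher and 6 lower. Of 18 other claudins 3 are tested, and CLDN23 is higher. Of 21 other connexins and pannexins 5 are tested, and GJA3 is lower. Of 30 other epithelial genes 5 are tested, and KLF4 is lower. No gene of the 41 other keratins is tested.

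DST and PLEC, plakins known from the hemidesmosome, which anchors keratins to the basement membrane, are lower. Of the other genes listed with them, ITGB4 has 3, 1 and 1 counts in 1CT and 3, 1 and 7 in 1CT-A. COL17A1 has 1, 2 and 3 counts in 1CT and 0, 0 and 2 in 1CT-A, and neither is tested, while ITGA6 and CD151 are lower. In the same list PPL (log2 fold change 1.14, adjusted p 0.0358 in edgeR) and LAMA3 (1.18, adjusted p 0.0266) are higher. PPL has 8, 3 and 7 counts in 1CT and 13, 22 and 24 in 1CT-A. Both pass the filter only through 1CT-A, and 53.0% of all 317 such genes are called higher. LAMB3 does not pass the test. Whether the falls of DST and PLEC concern hemidesmosomes was not tested. DST has 155 ± 6.32 CPM in 1CT and 61.7 ± 1.53 CPM in 1CT-A (log2 fold change -1.37, SE 0.07, adjusted p 1.57e-08 in edgeR), and PLEC has 317 ± 37.7 and 147 ± 4.32 CPM (log2 fold change -1.15, SE 0.09, adjusted p 3.19e-07). PERP, a membrane protein of desmosomes, falls by 0.67 on the log2 scale (SE 0.08, adjusted p 2.07e-05). The scaffold MAGI1 at tight junctions falls by 1.28 (SE 0.15, adjusted p 1.04e-05 in edgeR), AMOTL1 by 0.74 (SE 0.09, adjusted p 1.75e-05) and AMOTL2 by 0.72 (SE 0.11, adjusted p 0.000132 in edgeR). At adherens junctions, LIMA1, which binds actin, falls by 0.75 (SE 0.07, adjusted p 3.02e-06 in edgeR), while PVRL1 (nectin 1) rises by 1.03 (SE 0.16, adjusted p 0.00015) and CDH4 (R-cadherin) by 0.87 (SE 0.12, adjusted p 6.46e-05). CDH2 has 49.8 CPM in 1CT and 63.0 CPM in 1CT-A and does not pass the test (adjusted p 0.119 in edgeR). CDH11 (31.1 and 19.1 CPM) and CDH13 (11.6 and 7.93 CPM) are lower, CDH24 does not pass and CDH6 is not tested.

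All 6 ZEB, SNAI and TWIST genes are tested, of which 4 are higher, 1 is lower and ZEB2 does not pass. Over all 12514 genes tested, 25.0% are called higher and 26.0% lower, and a count over 6 genes is no test of the group. TWIST1 has 35.4, 29.2 and 21.8 CPM in 1CT and 102, 104 and 119 CPM in 1CT-A, clearly apart (log2 fold change 1.87, SE 0.13, adjusted p 1.68e-07 in edgeR). TWIST2 rises by 0.75 (SE 0.09, adjusted p 1.59e-05), SNAI2 by 0.57 (SE 0.12, adjusted p 0.00175) and ZEB1 by 0.44 (SE 0.09, adjusted p 0.00164 in edgeR). SNAI1 is lower, with a log2 fold change of -1.11 (SE 0.27, adjusted p 0.00358 in edgeR). ZEB2 has a log2 fold change of 0.15 (adjusted p 0.193).

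Among 9 other intermediate filament genes 6 are tested, 2 higher and 3 lower. The B-type lamins of the nuclear envelope rise, LMNB1 by 1.32 (SE 0.08, adjusted p 5.32e-08 in edgeR) and LMNB2 by 0.99 (SE 0.07, adjusted p 2.75e-07), while LMNA falls by 0.47 (SE 0.09, adjusted p 0.000544). VIM, the mesenchymal filament, has 2029.8, 1960.2 and 1645 CPM in 1CT and 1667, 1740.0 and 1626 CPM in 1CT-A, which overlap, with a log2 fold change of -0.20 (SE 0.07, adjusted p 0.0386 in edgeR).

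**Figure D4:**
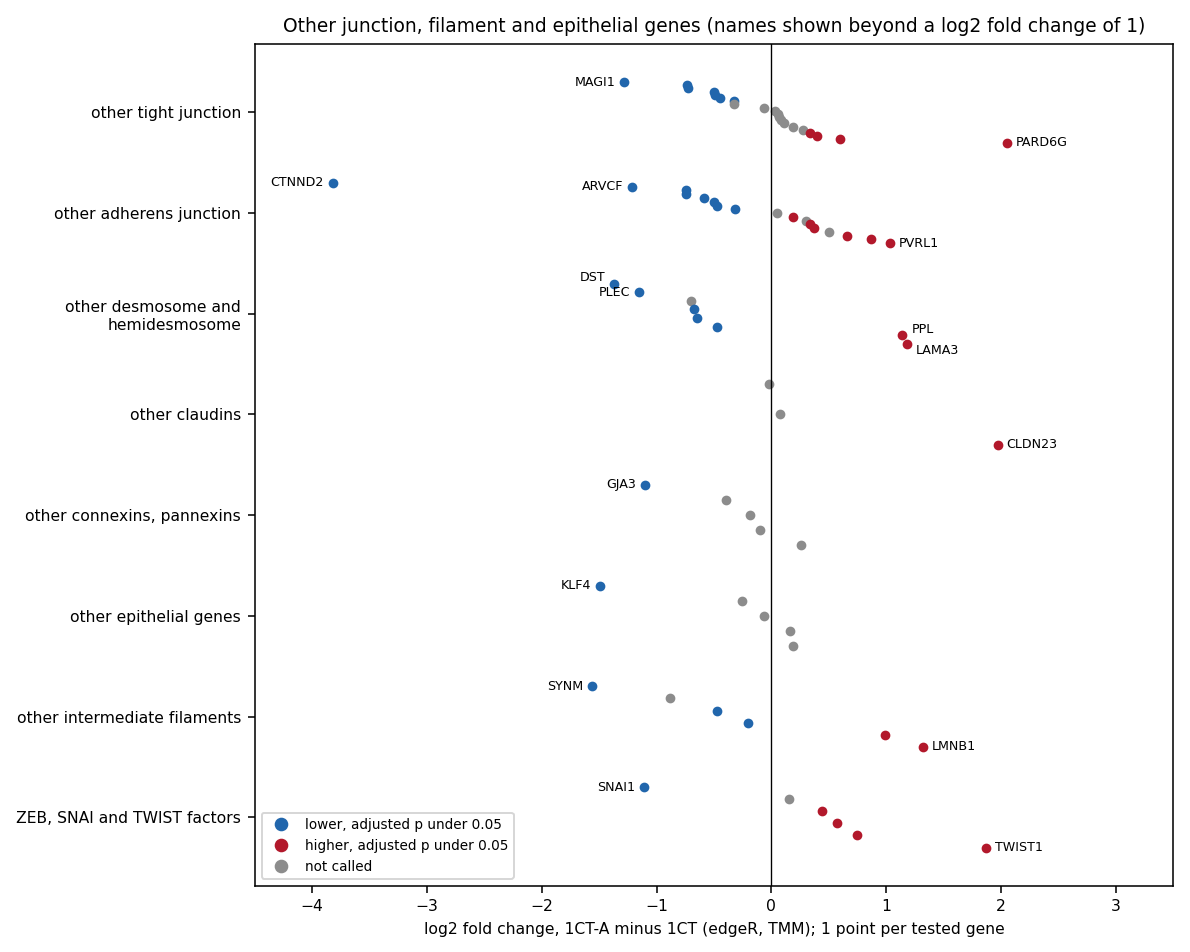
log2 fold change (1CT-A minus 1CT) of the tested genes in the other junction, filament and epithelial lists, except a gene that is not reported here, with a point per gene, colored by the call at an adjusted p under 0.05 in edgeR, and names shown beyond a log2 fold change of 1. TWIST1 lies at 1.87, MAGI1 at -1.28, DST at -1.37 and PLEC at -1.15.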

How the data were processed

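Bulk RNA was measured with QuantSeq libraries, which read the 3′ ends of transcripts, from 500 ng of total RNA in 3 1CT and 3 1CT-A samples. The authors deposited raw counts per gene symbol for each library, with no normalization and no pooling. The submitters' processing notes name hg19, Bowtie2 and edgeR without role or version. The counting tool, the annotation and the use of strand are not given in the sources used here, so overlapping and antisense genes cannot always be told apart. Coordinates come from GENCODE 44 on GRCh38 and describe that annotation, not the authors' counting.

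Counts of symbols entered repeatedly (286 symbols, none of them among the 49 genes) are added. Levels are CPM of each library total. edgeR 4.0.16 in R 4.3.3 is used with TMM normalization (factors 0.975 to 1.02), filterByExpr with a minimum count of 10, its two-sided quasi-likelihood test between the 2 lines and p-values adjusted by Benjamini-Hochberg across 12514 tested genes (common dispersion 0.00733). The filter corresponds to 1.02 CPM. This replaces the per-gene two-tailed test of the study's methods, since the values are counts. For a single gene, the smallest p of an exact permutation test is 0.1 in this design. Against lines with at most 3 counts in each library, folds are bounds computed with 3 counts per library. The scripts were tested on simulated data.

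The 49 genes and the lists were chosen with earlier results of these data known. Values per library are given for up to 6 called members per role with a mean of at least 2 CPM and the largest changes, and for members that average 100 CPM or more. Per other list, up to 3 called genes that average 10 CPM or more are named. Other names, such as CLDN23, GJA3, KLF4, ZEB1 and VIM, were chosen after their values were seen. A gene of the other lists is counted but neither named nor drawn, and its values are not reported here.

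Replicate numbers 1 to 3 are shared by both lines, but same-numbered libraries do not deviate together on average (mean correlation -0.03, range -0.16 to 0.22, over 8224 genes). The correlation is -0.16 for number 1, 0.22 for number 2 and -0.14 for number 3. The highest of all pairs, 0.345, is that of 1CT replicate 3 with 1CT-A replicate 1, so the numbers are not used for pairing. Replicates differ by more than counting noise (chi-square per degree of freedom 3.11 to 9.00), and none is a copy of another. Alternatives are no filter or a minimum of 10 counts in each of the libraries, scaling by library size alone or by DESeq2 size factors, the tests of limma-voom (limma 3.58.1) and DESeq2 1.42.0, a replicate block, stricter thresholds and each library left out in turn.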

Additional observations from a re-analysis of the deposited data

How the results depend on the processing

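Of the 22 tested members, 17 keep their direction and their side of an adjusted p of 0.05 in every alternative fit that tests them. The exceptions are CLDN7, CLDN11, PKP3, CLDN12 and CTNND1. The 14 members called lower become 7 with at least 10 counts in every library, since fewer genes are then tested, and 18 without a filter, which gives 22 higher and 35 lower genes in the other lists. At the study's thresholds of a 2-fold change and an unadjusted p under 0.01, 1 member is higher and 10 are lower, without KRT10, GJA1, CTNNA1, CLDN7, CLDN11 and PKP3. At an adjusted p under 0.01, 3 are higher and 11 lower. Leaving out each library in turn gives 2 to 4 members higher and 11 to 14 lower, and 15 to 18 higher and 25 to 30 lower genes in the other lists. The summed level of type I keratins is then between 181.8 and 195.8 CPM in 1CT, against 212.6 to 224.4 CPM in 1CT-A, and that of type II keratins 23.9 to 27.5 and 1.11 to 1.53 CPM. With single libraries left out, the log2 fold change of CTNND1 runs from -0.0598 to 0.123. It changes sign to -0.0598 without 1CT replicate 3 and to -0.0296 without 1CT-A replicate 2, and it passes the test in neither. The replicate block gives 3 members higher and 13 lower, and 16 higher and 27 lower in the other lists, with CLDN11 as the call lost (adjusted p 0.075). The cause of these changes was not tested. DSP, DSC3 and KRT19 rest on at most 34 counts per library, and genes at 0 may be present below 3 counts. The median log2 fold change of all tested genes is -0.01 with TMM and 0.03 with library size only.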

Other observations

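The keratin-associated proteins, which crosslink hair keratins, were looked at after the values of KRT34 were seen. Of 93 such symbols 90 have at most 3 counts in every library, and 2 are tested. KRTAP2-3 is at 22.8 ± 2.83 CPM in 1CT and 4.04 ± 0.682 CPM in 1CT-A (SD, n = 3), a log2 fold change of -2.53 (SE 0.16, adjusted p 6.19e-08 in edgeR). KRTAP1-5 is at 7.59 ± 0.402 and 3.03 ± 0.415 CPM, a log2 fold change of -1.36 (SE 0.20, adjusted p 8.63e-05 in edgeR). Near-identical copies exist in this family, so the counts of single members are uncertain.

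A few genes outside the 49 were chosen here after their values were seen. CTNND2, a catenin known from neurons, has 40, 27 and 42 counts in 1CT and 3, 4 and 4 in 1CT-A (log2 fold change -3.82, SE 0.37, adjusted p 2.65e-06 in edgeR). PARD6G, a polarity protein, has 6, 20 and 6 counts in 1CT and 49, 77 and 71 in 1CT-A (log2 fold change 2.05, SE 0.37, adjusted p 0.00044 in edgeR). LAMA3, a laminin chain, has 12, 6 and 4 counts in 1CT and 16, 30 and 28 in 1CT-A (log2 fold change 1.18, SE 0.41, adjusted p 0.0266 in edgeR). CTNND2 passes the filter only through 1CT, and 80.8% of all 777 such genes are called lower. PARD6G and LAMA3 pass only through 1CT-A, and 53.0% of all 317 such genes are called higher.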
